A study of Mus musculus with 22 samples.

Results

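The 9 genes examined, Rhd, Kel, Ermap, Icam4, Aqp1, Bsg, Cd47, Slc14a1 and Cd44, encode proteins of the red cell surface, most of them carriers of blood group antigens. They were taken as a list of names out of 21938 protein-coding genes of the GENCODE mouse annotation, and each was followed in a window of its gene body with 20 kb on each side. H3K4me3 and H3K27ac had been profiled by ChIP-seq in G1ER (G1E-ER4) cells, a subclone of the Gata1-null mouse erythroid progenitor line G1E that constitutively expresses GATA1-ER, a GATA1 fused to the ligand-binding part of the estrogen receptor. All groups were of this 1 line, which lacks endogenous GATA1 and was cultured with stem cell factor and erythropoietin. Cells at 0 h received no β-estradiol, and the other groups had been treated with it for 2, 6, 12 or 24 h. Each of these 5 time points had 2 replicate peak lists per histone mark, and CTCF had 1 list at 0 h and 1 at 24 h. The study describes its ChIP-seq replicates in these cells as independent experiments, without saying whether these were separate cultures. The p-values below therefore measure the spread between the 2 lists of a time point. That spread was pooled over all 5 time points and moderated by that of all regions or windows tested.

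A blood group is an inherited difference in a molecule on the red cell surface, and most of these molecules have other work to do. Rhd encodes a protein of the Rh complex, in which Cd47, the ligand that tells macrophages through SIRPα not to engulf a cell, is a partner. Kel encodes the Kell endopeptidase. Icam4 (the LW antigen), Bsg (basigin, the Ok antigen) and Ermap (the Scianna antigens) are members of the immunoglobulin superfamily, as is Cd47. Aqp1 is a water channel (Colton), Slc14a1 a urea transporter (Kidd), and Cd44 the receptor for hyaluronan (Indian), which is abundant on early erythroid precursors. H3K4me3 is found mainly at the starts of active genes, and H3K27ac at active promoters and enhancers.

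The H3K4me3 lists held 12925 to 14452 peaks and the H3K27ac lists 17247 to 18333, and the CTCF lists held 33193 and 41473. Depth of sequencing is unknown, as the lists carry no read counts. Of 8 erythroid markers, 4 had an H3K4me3 peak over the start in all 10 lists and 1 (Tal1) in none, and 0 of 8 markers of other cell types had one in any list. H3K27ac lay over the start of Klf1, an erythroid transcription factor, in all 10 lists, of Epor in 2 and of Tfrc in 1, and over those of Tal1, Gfi1b, Nfe2, Lyl1 and Zfpm1 in 0. No peak in any histone list was longer than 9200 bp, with the longest per list at 8843 to 9200 bp for H3K4me3 and 8769 to 8973 bp for H3K27ac. Whether marked stretches longer than that were left out of the lists was not tested, and a gene start without a peak is described here only as that.

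Most of the genes were marked by H3K4me3 throughout differentiation. A peak lay over the gene start of Rhd, Kel, Ermap, Icam4, Bsg, Cd47 and Cd44 in all 10 lists, that is 7 of 9 genes, where 41.9% of all protein-coding genes had one. Aqp1 and Slc14a1, the channel and the transporter, had no peak of either mark anywhere in their windows in any of the 20 lists. The same was true of 33.3% of all protein-coding gene windows. H3K27ac divided the 7 marked starts further. It lay over the starts of Kel, Icam4, Bsg and Cd44 in all 10 lists, over that of Rhd in 6, and over those of Ermap and Cd47 in none.

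The sequences before the starts of the marked genes are shown because GATA1 is the factor switched on in these cells. They are from RefSeq on GRCm38.p6, 5′ to 3′ on the strand of the gene, and stop at the annotated transcript start or at a motif match close after it. Capitals mark the GATA motif on either strand, searched for as AGATAA and as AGATAG, and with the same endings as TGATAA and as TGATAG.
Rhd, chr4:134864286-134864535 (plus strand): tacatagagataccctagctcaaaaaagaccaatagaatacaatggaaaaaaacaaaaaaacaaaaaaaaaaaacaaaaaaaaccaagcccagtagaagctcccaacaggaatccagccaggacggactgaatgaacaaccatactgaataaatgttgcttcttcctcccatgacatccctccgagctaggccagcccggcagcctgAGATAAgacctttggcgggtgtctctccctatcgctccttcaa
Kel, chr6:41704339-41704575 (minus strand): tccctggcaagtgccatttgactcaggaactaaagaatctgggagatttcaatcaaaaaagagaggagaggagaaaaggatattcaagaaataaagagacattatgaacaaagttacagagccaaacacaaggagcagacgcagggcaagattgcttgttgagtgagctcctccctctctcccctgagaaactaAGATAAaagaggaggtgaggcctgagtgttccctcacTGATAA
Ermap, chr4:119190012-119190245 (minus strand): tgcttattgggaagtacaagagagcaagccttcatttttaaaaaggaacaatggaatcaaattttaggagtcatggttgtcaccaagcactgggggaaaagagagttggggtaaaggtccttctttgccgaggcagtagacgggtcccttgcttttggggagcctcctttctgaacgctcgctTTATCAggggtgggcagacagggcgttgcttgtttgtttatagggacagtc
Icam4, chr9:21029182-21029394 (plus strand): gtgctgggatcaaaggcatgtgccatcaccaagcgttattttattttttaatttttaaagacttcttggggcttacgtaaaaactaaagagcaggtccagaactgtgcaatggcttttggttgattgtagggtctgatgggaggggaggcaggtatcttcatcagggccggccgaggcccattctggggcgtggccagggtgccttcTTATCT
Cd47, chr16:49855404-49855632 (plus strand): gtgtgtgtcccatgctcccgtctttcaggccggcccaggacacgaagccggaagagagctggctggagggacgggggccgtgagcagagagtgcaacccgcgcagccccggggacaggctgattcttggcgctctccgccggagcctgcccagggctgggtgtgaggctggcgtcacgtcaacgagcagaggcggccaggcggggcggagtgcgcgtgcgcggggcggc
Cd44, chr2:102901666-102901915 (minus strand): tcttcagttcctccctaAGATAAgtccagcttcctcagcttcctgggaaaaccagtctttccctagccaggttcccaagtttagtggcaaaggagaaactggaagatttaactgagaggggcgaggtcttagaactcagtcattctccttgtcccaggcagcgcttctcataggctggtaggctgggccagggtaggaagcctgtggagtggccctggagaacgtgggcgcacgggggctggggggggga
Among the 7 genes with an entry, 5 (Rhd, Kel, Ermap, Icam4 and Cd44) held such a match within 250 bases before the RefSeq start. In Icam4 that start lies further into the gene than the start used for the peaks, 21029373, and the match is after the latter. Of 32851 RefSeq starts, 26.5% did. The matches began 43 bases before the RefSeq start in Rhd and in Icam4, 67 in Ermap, 56 and 19 in Kel, and 233 in Cd44. Cd47 and Aqp1 had none in these bases, and Bsg and Slc14a1 had no entry. The 250 bases before the starts differed in composition, from 43.6% G and C in Rhd to 73.2% in Cd47, and from 1 CpG in Kel to 30 in Cd47. These are matches of letters, and no GATA1 binding was measured in these lists.

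**Figure D1:**
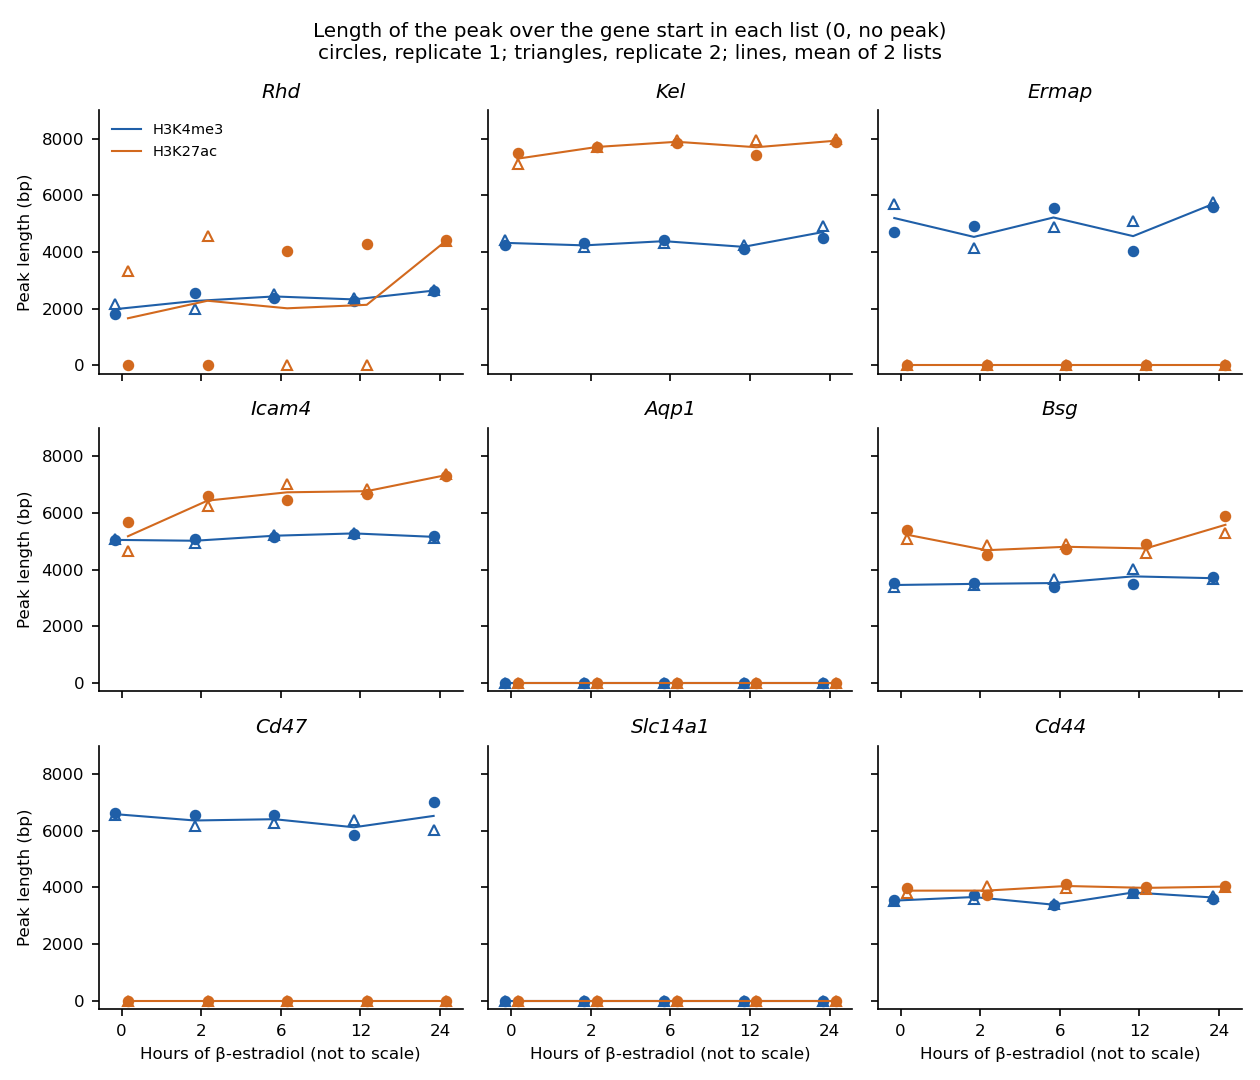
Length in bp of the peak over the gene start (0, no peak) for each of the 9 genes against hours of β-estradiol, with H3K4me3 in blue and H3K27ac in orange. Circles and triangles are the 2 replicate lists and lines their mean. Aqp1 and Slc14a1 stay at 0 for both marks and Ermap and Cd47 at 0 for H3K27ac only, while the Kel H3K27ac peak lies between 7102 and 7974 bp.

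Rhd and Cd47 belong to the Rh complex. The Rhd gene spans chr4:134864536-134896172 (mm10) on the plus strand. Over its start the H3K4me3 peak measured 1799 and 2159 bp at 0 h, 2557 with 1978 bp after 2 h, 2356 with 2499 bp after 6 h, 2267 with 2378 bp after 12 h, and 2604 with 2664 bp after 24 h. At 24 h against 0 h the log2 difference in covered length of 0.38 ± 0.12 (SE) did not pass over all regions (limma, adjusted p = 0.23). Its mean length of 2326 bp was the shortest of the 7 and stood at percentile 32.7 among the 9191 genes with an H3K4me3 peak over the start in all 10 lists.

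H3K27ac over the Rhd start was irregular before 24 h. It was absent and 3315 bp long at 0 h, absent and 4552 bp at 2 h, 4018 bp and absent at 6 h, and 4265 bp and absent at 12 h. Both lists held it at 24 h, with 4420 and 4381 bp. From 0 to 12 h, 1 of the 2 lists at each time had no peak, and the difference at 24 h was not detectable (limma, log2 2.46 ± 2.45 (SE), adjusted p = 0.62). A second acetylated region began 260 bp further into the gene, at 2224 to 8497 bp from the start, and was present in all 10 lists with 4280 to 6139 bp. The 2 regions together span 11086 bp, more than the length of any listed peak. Whether this bears on the missing peaks was not tested. An H3K4me3 region lay at 4188 to 5966 bp in 9 lists and was absent from replicate 1 at 24 h. Over a coding exon at 14642 to 15847 bp, where both CTCF lists had a peak, H3K27ac was present in 6 lists and in neither at 24 h. H3K4me3 was there in 7 lists.

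The change with the smallest adjusted p in these windows lay next to Rhd, at the promoter of its neighbour Tmem50a. An H3K27ac region at chr4:134912630-134920851, which holds the Tmem50a start and runs past the end of the Rhd window, had no peak in the 4 lists at 0 and 2 h. It measured 6290 and 3199 bp at 6 h, 7971 with 7018 bp after 12 h, and 7929 with 7107 bp after 24 h. The mean was thus 0 bp at 0 h and 7518.0 ± 581 bp (SD, n = 2) at 24 h, and the groups did not overlap. Of all H3K27ac regions, 3.43% were likewise absent from both lists at 0 h and present in both at 24 h. Listed scores of these peaks were 207.84 with 206.23 after 6 h, 64.02 with 131.97 after 12 h, then 52.5 with 92.74 after 24 h. Within their lists they stood between percentiles 1.98 and 45.2, and they were not tested. Whether the limit on listed length, 8769 to 8973 bp for H3K27ac, bears on the lists without a peak was not tested. In limma the log2 difference was 4.55 ± 0.29 (SE, adjusted p = 0.00067) at 6 h, 5.26 ± 0.29 (adjusted p = 0.00039) at 12 h and 5.27 ± 0.29 (adjusted p = 0.00025) at 24 h. Since both lists at 0 h were at 0, the size of these values is set by the pseudocount of 200 bp. With an equal number of top-scoring peaks taken from each list the call at 24 h was lost (log2 2.60, limma adjusted p = 0.4). With only the peaks whose score reached the median over all lists, the region was not among those tested. The same promoter carried H3K4me3 in all 10 lists, with 2800 and 2939 bp at 0 h and 2319 and 2500 bp at 24 h (log2 -0.23 ± 0.07 (SE), limma adjusted p = 0.2). CTCF had a peak there at 0 h and at 24 h. The 300 bases in the middle of this region, beyond the Tmem50a transcript, are shown from the GRCm38 genome with the same motif in capitals.
Middle of the acetylated region at Tmem50a, chr4:134916590-134916889 (plus strand): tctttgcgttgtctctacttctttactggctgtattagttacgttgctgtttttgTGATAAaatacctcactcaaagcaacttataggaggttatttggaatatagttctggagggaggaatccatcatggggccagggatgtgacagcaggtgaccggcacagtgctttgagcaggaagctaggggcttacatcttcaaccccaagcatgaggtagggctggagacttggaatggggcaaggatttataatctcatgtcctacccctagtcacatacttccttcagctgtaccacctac
The 1 match in it, on the strand shown, is of a kind found in the middle 300 bases of 42% of all H3K27ac regions.

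**Figure D2:**
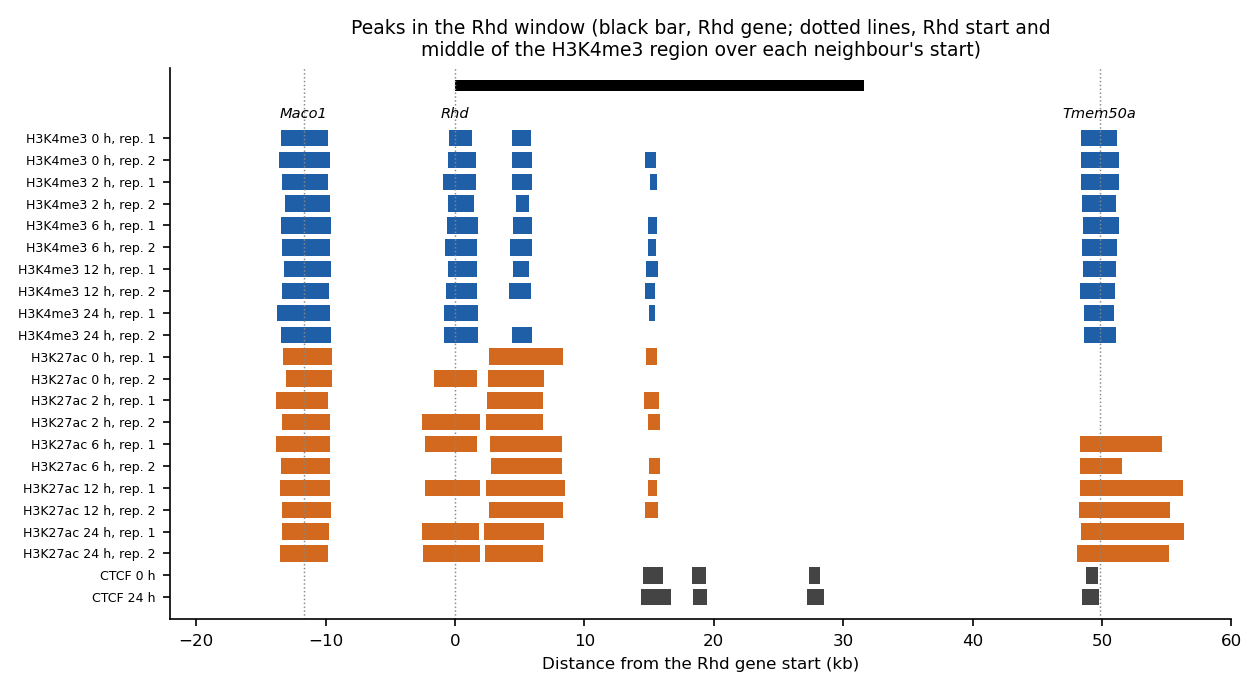
Every peak in the Rhd window by list, against distance in kb from the Rhd start, with H3K4me3 in blue, H3K27ac in orange and CTCF in grey. The H3K27ac bars at Tmem50a are missing from the 4 lists at 0 and 2 h and present in the 6 later lists, while the H3K4me3 bars there are in all 10.

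Cd47 (chr16:49800533-49915010, plus strand) had the longest H3K4me3 peaks of the 9 genes. The start used here, that of its principal transcript, lies at 49855645, inside the gene's outermost annotated start by 55112 bp. The peak over it measured 6607 and 6558 bp at 0 h, 6555 with 6163 bp after 2 h, 6543 with 6265 bp after 6 h, 5861 with 6377 bp after 12 h, and 7001 with 6040 bp after 24 h. Replicates at 24 h differed by more than the time points did, and the log2 difference was -0.02 ± 0.09 (SE, limma adjusted p = 1). The mean of 6397 bp stood at percentile 98.7 of the same 9191 genes. No H3K27ac peak was listed near this start, with the nearest 12461 to 14243 bp from it depending on the list. The outermost annotated start lies within an H3K27ac region at -58638 to -52987 bp. That region was present in 3 lists (replicate 2 at 0 h and at 6 h, replicate 1 at 24 h), with 4510 to 5566 bp. Within the first part of the long gene, 2 intronic regions carried both marks in all 10 lists. One of them, at -18538 to -12461 bp from the start, had 3753 to 5792 bp of H3K27ac and overlapped CTCF at both times. The other, at -38932 to -35638 bp, had 2115 to 3295 bp. A further acetylated region, over coding exon sequence at 46726 to 53290 bp, was present in all 10 lists with 3115 to 6557 bp, and 1 H3K4me3 list had a peak in the same place.

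Kel (chr6:41686330-41704339, minus strand) had long peaks of both marks in every list. H3K4me3 measured 4110 to 4924 bp and H3K27ac 7482 and 7102 bp at 0 h, 7715 with 7698 bp after 2 h, 7833 with 7943 bp after 6 h, 7427 with 7965 bp after 12 h, and 7880 with 7974 bp after 24 h. The longest of these, 7974 bp, was the longest histone peak among the 407 in the windows of the 9 genes. The difference at 24 h was not detectable for either mark (log2 0.12 ± 0.06 (SE), adjusted p = 0.49 for H3K4me3 and log2 0.12 ± 0.08 (SE), adjusted p = 0.47 for H3K27ac, limma). A further H3K27ac region at 18207 to 20024 bp, over the start of the neighbour Llcfc1, was gained at 24 h. It was absent at 0, 2 and 6 h, measured 1043 bp in 1 list at 12 h and was absent in the other, and measured 1818 and 911 bp at 24 h. Its log2 difference of 2.90 ± 0.82 (SE), whose size is set by the pseudocount, did not pass (limma, adjusted p = 0.1). It passed without replicate 1 at 12 h (adjusted p = 0.0095 in limma), without replicate 2 at 12 h (0.0098), and with the lists at 0 and 24 h alone (0.031). The Llcfc1 start had no H3K4me3 region.

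Of Icam4, Ermap and Bsg, Icam4 had an H3K27ac region called longer at 24 h, with a lower listed score. Icam4 (chr9:21029373-21030595, plus strand) is a short gene between Icam1 and Icam5, and its peaks also cover the Icam5 start, so the genes cannot be told apart. The H3K27ac region at chr9:21026657-21034040 measured 5683 and 4673 bp at 0 h, 6613 with 6260 bp after 2 h, 6447 with 7012 bp after 6 h, 6678 with 6862 bp after 12 h, and 7303 with 7374 bp after 24 h. All 8 later lists were above both lists at 0 h, and the share of all regions that separate so was not computed. The listed score of this peak was 269.89 and 481.14 at 0 h and 255.01 and 197.99 at 24 h. Scores were not tested. Covered length rose from 5178.0 ± 714 bp to 7338.5 ± 50.2 bp (SD, n = 2), a log2 difference of 0.49 ± 0.10 (SE, limma adjusted p = 0.041) with a trend over time (limma adjusted p = 0.043). Leaving out any single list other than replicate 1 at 0 h ended this call (log2 0.36 to 0.50, adjusted p 0.056 to 0.13 in limma). H3K4me3 over the same start was nearly constant, at 4955 to 5285 bp (log2 0.03 ± 0.05 (SE), limma adjusted p = 0.88). CTCF lay over the Icam4 start at both times, and of the 5 CTCF peaks in the window at 24 h, 3 were not in the list at 0 h. The whole CTCF list was also larger at 24 h, with 41473 peaks against 33193.

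Ermap (chr4:119175457-119190011, minus strand) resembled Cd47. Its H3K4me3 peak measured 4706 and 5685 bp at 0 h, 4916 with 4144 bp after 2 h, 5547 with 4885 bp after 6 h, 4019 with 5096 bp after 12 h, and 5598 with 5777 bp after 24 h (log2 0.13 ± 0.14 (SE), limma adjusted p = 0.77). The mean of 5037 bp stood at percentile 95.1 of the same 9191 genes. No list had an H3K27ac peak within 14838 bp of the start, and the only acetylated region in the window, with 1972 to 2658 bp in all 10 lists, was that at the start of the neighbour Zfp691. The promoter of Svbp on the other side also carried H3K4me3 in all 10 lists and H3K27ac in none.

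**Figure D3:**
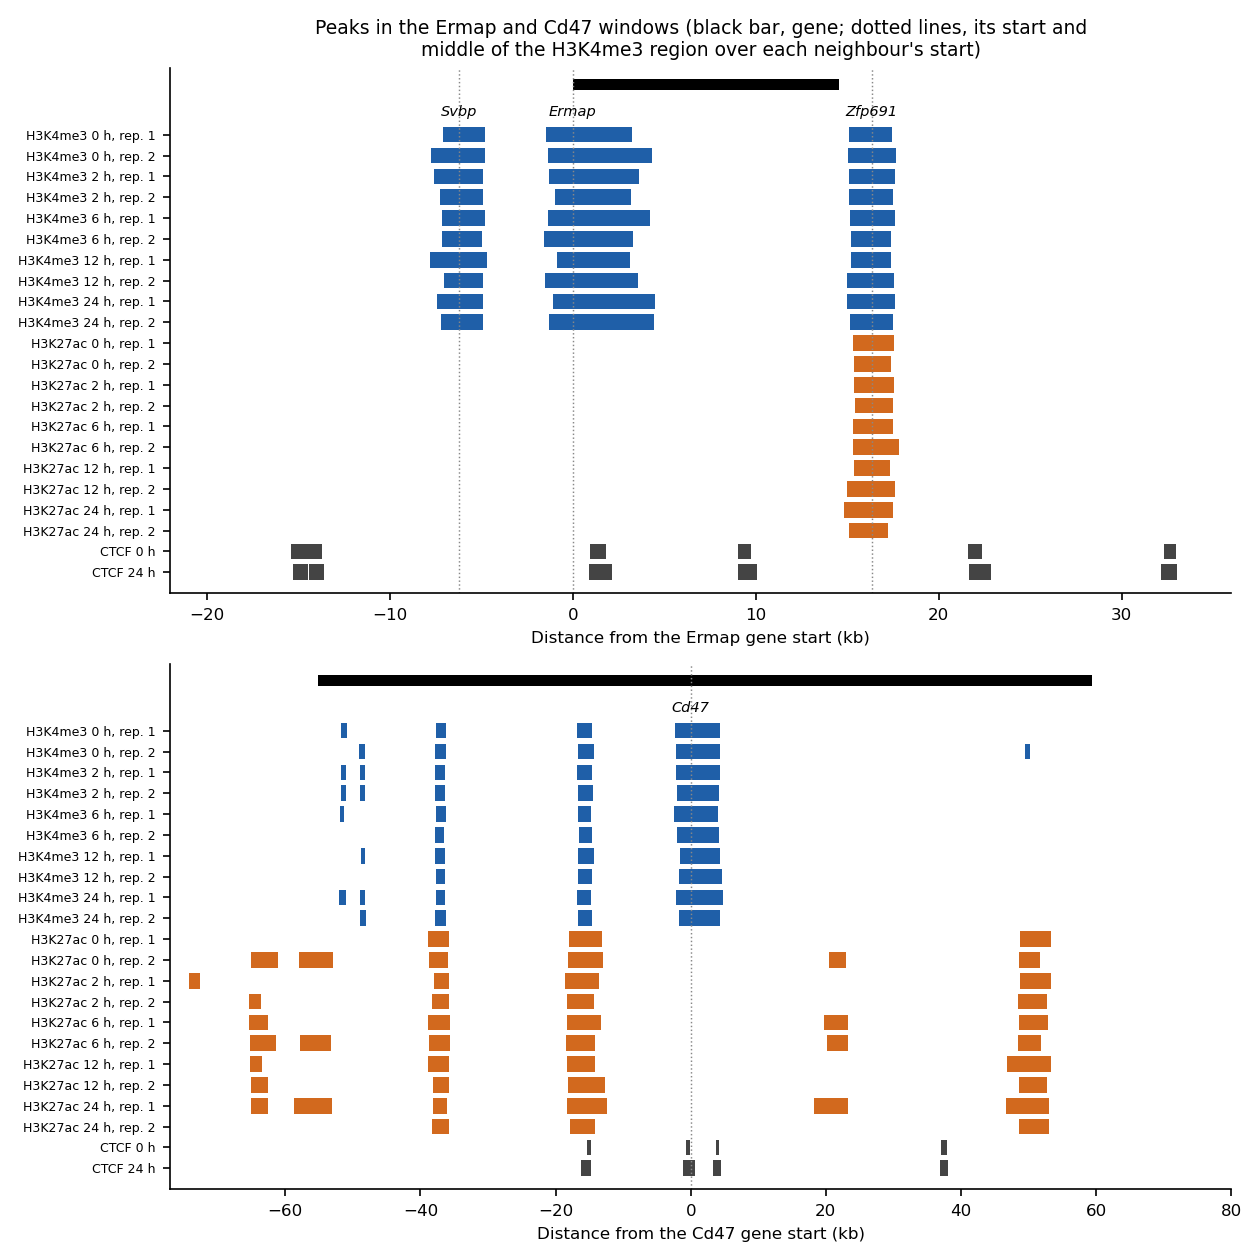
Every peak in the Ermap window (top) and the Cd47 window (bottom) by list, against distance in kb from the gene start, with H3K4me3 in blue, H3K27ac in orange and CTCF in grey. Over both gene starts the 10 H3K4me3 lists have a peak and the 10 H3K27ac lists have none, with the nearest H3K27ac peak 14838 bp or more from the Ermap start and 12461 bp or more from the Cd47 start.

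Ermap and Cd47 were compared with all genes because such starts are uncommon. Of the 9191 genes with H3K4me3 over the start in all 10 lists, 86.4% had H3K27ac there in all 10 lists as well and 275 (2.99%) had it in none. The share without H3K27ac varied with the length of the H3K4me3 peak. It was 0.515% of 3882 genes with a mean length from 2000 to 3000 bp, 4.79% of 898 from 4000 to 5000 bp, 12.1% of 297 from 5000 to 6000 bp, where Ermap falls, and 27.1% of 177 at 6000 bp or more, where Cd47 falls. Below 2000 bp it was 5.96% of 1712 genes. From 0.372% to 0.604% of the peaks in an H3K27ac list were 8000 bp or longer. Whether the absence of a listed peak at Ermap and Cd47 reflects the mark or the limit on listed length was not tested, since the lists hold no signal between peaks.

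**Figure D4:**
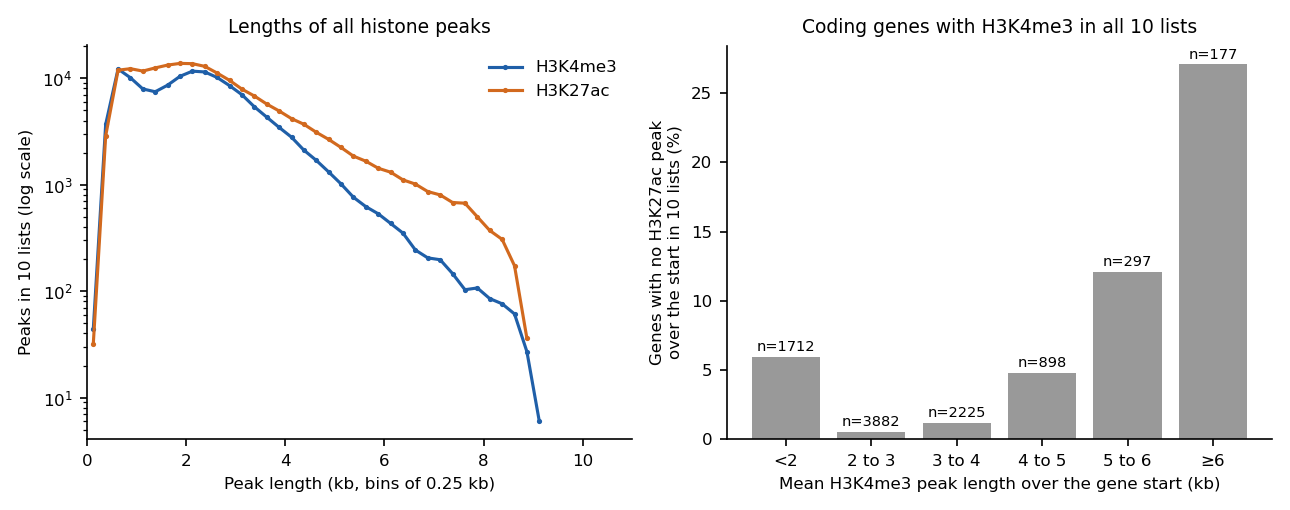
Left, number of peaks in the 10 lists of each mark against peak length in bins of 0.25 kb (log scale), which falls off before 9200 bp. Right, percentage of genes with no H3K27ac peak over the start in any list, by mean H3K4me3 peak length, for the 9191 genes with H3K4me3 in all 10 lists (n above each bar), from 0.515% at 2000 to 3000 bp to 27.1% at 6000 bp or more.

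Bsg (chr10:79704491-79711969, plus strand), which also escorts lactate transporters to the membrane, varied little. H3K4me3 measured 3389 to 4015 bp over its start and H3K27ac 5387 and 5076 bp at 0 h and 5885 and 5280 bp at 24 h, with 4517 to 4896 bp between them. The groups at 0 h and 24 h overlapped (log2 0.09 ± 0.08 (SE), limma adjusted p = 0.58 for H3K27ac). CTCF peaks numbered 4 at each time.

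Cd44 (chr2:102811141-102901665, minus strand) kept both marks over its start. An H3K27ac region in an intron was called shorter at 24 h, with a higher listed score. The peaks over the start held 3371 to 3847 bp of H3K4me3 and 3723 to 4116 bp of H3K27ac (log2 0.05 ± 0.06 (SE), limma adjusted p = 0.67 for H3K27ac). Inside an intron at 31508 to 36023 bp from the start (chr2:102865602-102870117), H3K27ac measured 4499 and 4328 bp at 0 h, 3755 with 4262 bp after 2 h, 3909 with 4175 bp after 6 h, 3560 with 3765 bp after 12 h, and 3384 with 3461 bp after 24 h. Both lists at 24 h were below all the others, and the share of all regions that separate so was not computed. The listed score of this peak was 359.15 and 375.67 at 0 h and 476.56 and 466.46 at 24 h, and was not tested. Covered length fell from 4413.5 ± 121 bp to 3422.5 ± 54.4 bp (SD, n = 2), a log2 difference of -0.35 ± 0.07 (SE, limma adjusted p = 0.045) with a trend over time (limma adjusted p = 0.034). Leaving out any single list other than the 2 at 2 h ended the call (log2 -0.38 to -0.32, adjusted p 0.061 to 0.18 in limma). H3K4me3 was present in the same region in all 10 lists with 813 to 1849 bp (log2 -0.08 ± 0.23 (SE), limma adjusted p = 0.96). A CTCF peak of 537 bp lay in it at 0 h and not at 24 h, the only 1 of 26 CTCF peaks at 0 h in these windows without a counterpart at 24 h. That peak had a low score, at percentile 29.1 of its list, and CTCF had no replicate.
Middle of the Cd44 intronic region, chr2:102867709-102868008 (minus strand): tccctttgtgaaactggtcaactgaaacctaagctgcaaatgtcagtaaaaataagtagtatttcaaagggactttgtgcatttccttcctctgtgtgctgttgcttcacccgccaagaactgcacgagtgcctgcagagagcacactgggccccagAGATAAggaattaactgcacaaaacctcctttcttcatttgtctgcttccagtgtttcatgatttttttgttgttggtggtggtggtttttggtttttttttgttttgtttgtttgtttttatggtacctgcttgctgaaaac
These are the 300 bases in the middle of the region from GRCm38, with the same motif in capitals and 1 match. As given above, 42% of all H3K27ac regions hold such a match in their middle 300 bases.

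The other Cd44 regions did not pass the test. An acetylated region over coding exon sequence at 52110 to 53697 bp was gained at 6 h, with 1200 and 1489 bp, was present in 1 list at 12 h with 1345 bp, and was absent at 0, 2 and 24 h (limma at 6 h, adjusted p = 0.26). A narrow intronic region near 72 kb carried H3K4me3 (368 to 1025 bp), H3K27ac (351 to 671 bp) and CTCF in every list, 22 in all. Regions at -13867 to -11936 bp and at 12928 to 17008 bp carried H3K27ac in all 10 lists and H3K4me3 in none.

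Aqp1 and Slc14a1 were far from any histone peak. From the Aqp1 start (chr6:55336432-55348555, plus strand) the nearest H3K4me3 peak was 295449 to 296092 bp away and the nearest H3K27ac peak 295517 to 296122 bp away. From the Slc14a1 start (chr18:78100091-78142119, minus strand) these distances were 126835 to 202261 bp and 112656 to 126729 bp. CTCF was present in both windows, with 1 peak at each time for Aqp1 and with 2 at 0 h and 3 at 24 h for Slc14a1.

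Over the 7 windows with peaks there were 23 H3K4me3 and 27 H3K27ac regions. Of these, 18 and 16 were present in all 10 lists, against 70.8% of all H3K4me3 regions and 54.4% of all H3K27ac regions. H3K4me3 was tested in 22 of the 23, those with a peak in at least 2 lists, and 0 changed at 24 h in either direction (2 at an unadjusted p under 0.05, against 1841 of 14860 over all regions), where limma called 0.471% of all regions longer and 1.11% shorter. The linear trend gave 0 as well (2 at an unadjusted p under 0.05, against 1902 of 14860), with 0.532% of all regions longer and 1.16% shorter. No H3K4me3 region was gained or lost at 24 h, where 0.456% of all regions were gained and 3.88% lost. H3K27ac was tested in 25 of the 27. At 24 h, 2 were longer (Tmem50a and Icam4) and 1 shorter (Cd44), against 3.3% and 3.02% of all regions. The same 3 followed a linear trend, against 4.19% and 3.45%. At an unadjusted p under 0.05 (limma) there were 5 at 24 h, against 4444 of 21011 over all regions. For the trend there were 4, against 4696. H3K27ac regions gained were 2 at 6 h (Tmem50a and Cd44), 1 at 12 h (Tmem50a) and 2 at 24 h (Tmem50a and Llcfc1), where 2.31%, 2.69% and 3.43% of all regions were gained. None was lost at 24 h, against 4.18% of all regions. Peaks that are present or absent depart from the even noise that limma assumes, so calls of such regions are less certain than the adjusted p states.

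Taken by whole gene window, adding up all peaks of a mark in it, 0 of the 7 windows changed at 24 h in either mark. Over all gene windows limma called 1.11% for H3K4me3 and 5.23% for H3K27ac. At an unadjusted p under 0.05 there were 0 windows for H3K4me3 and 3 for H3K27ac, where 1577 of 13666 and 2911 of 13925 windows were below it over all genes. The 3 were those of Kel (log2 0.34 ± 0.09 (SE), adjusted p = 0.075), Rhd (0.57 ± 0.21, adjusted p = 0.18) and Icam4 (0.32 ± 0.12, adjusted p = 0.2). These windows also count peaks of neighbours. In the Kel window the region over the Kel start had a mean of 7292.0 bp at 0 h and 7927.0 bp at 24 h. The Llcfc1 region in it had 0 and 1364.5 bp. The Rhd window includes part of the Tmem50a region, and the Icam4 window the starts of Icam1 and Icam5.

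**Figure D5:**
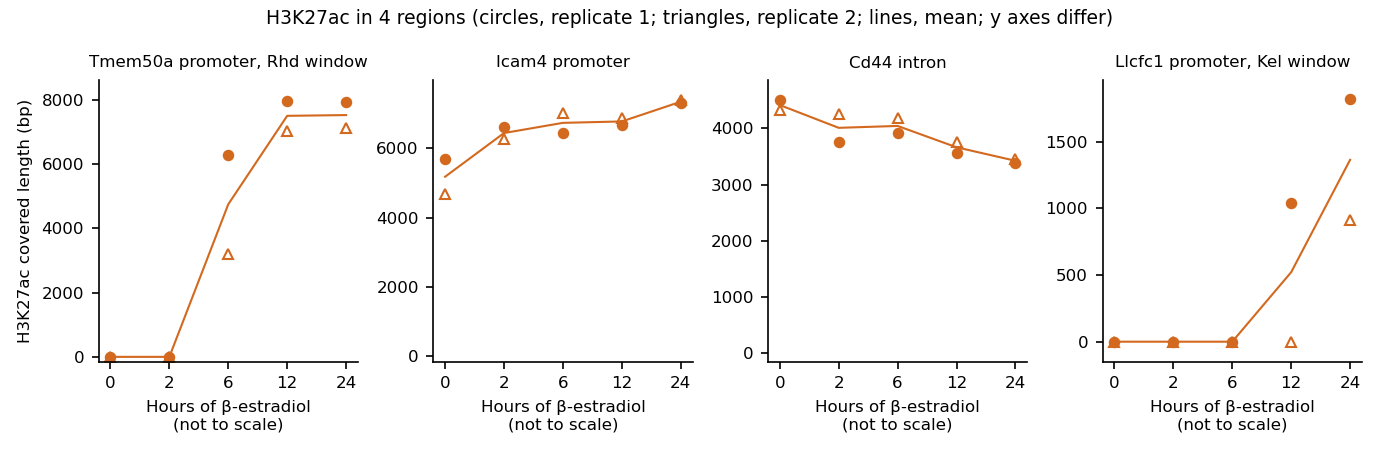
H3K27ac covered length in bp against hours of β-estradiol in the 4 regions that changed in limma or were gained at 24 h, with circles and triangles for the 2 replicate lists and lines for their mean (the scale of the y axis differs between panels, each from 0). Tmem50a goes from 0 to 7929 and 7107 bp, Icam4 from 5683 and 4673 to 7303 and 7374 bp, the Cd44 intron from 4499 and 4328 to 3384 and 3461 bp, and Llcfc1 from 0 to 1818 and 911 bp.

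The 9 genes were then set beside 30 others of the red cell surface, among them carriers of other antigens, transporters and receptors. H3K4me3 lay over the start in all 10 lists for 18 of the 30 and in none for 9, against 41.9% and 55.6% of all protein-coding genes. As at Ermap and Cd47, Rhag and Kcnn4 had H3K4me3 over the start in all 10 lists and H3K27ac in none. At Rhag, the partner of Rhd in the Rh complex, the H3K4me3 peak measured 4026 to 5222 bp. Xk, the partner of Kel, had 4270 to 4794 bp of H3K4me3 and 4979 to 6380 bp of H3K27ac, each in all 10 lists. Ackr1, the Duffy antigen receptor, had H3K27ac over its start in all 10 lists, with 2324 to 4859 bp, and H3K4me3 in none.

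In the window fit, 25 of the 30 were tested for each mark. For H3K4me3 0 changed at 24 h in either direction, against 152 of 13666 windows over all genes (6 at an unadjusted p under 0.05, against 1577). For H3K27ac 2 rose and 0 fell, where 469 of 13925 windows rose and 259 fell over all genes. At an unadjusted p under 0.05 (limma) there were 3, against 2911 of 13925. The median log2 difference was 0.12 against 0.05 over all windows tested. Slc4a1, the band 3 anion exchanger, rose from 3963 and 3624 bp at 0 h to 6637 and 6420 bp at 24 h (log2 0.75 ± 0.12 (SE), limma adjusted p = 0.018). Abcc4, an exporter, rose from 7137 and 6668 bp to 13073 and 10421 bp (log2 0.74 ± 0.16 (SE), limma adjusted p = 0.047).

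CTCF had 1 list at each time, so no difference could be tested. Of the 26 peaks at 0 h in these windows, 25 (96.2%) overlapped a peak at 24 h, near the 92.1% of all 33193 peaks at 0 h. At 24 h there were 30, of which 3 at Icam4 and 1 at Slc14a1 had no counterpart at 0 h. The share without a counterpart over all 41473 peaks at 24 h was not computed. CTCF peaks of the Icam4 window covered 1586 bp before and 4897 bp after 24 h of treatment, 2534 and 5494 bp in that of Cd47, 4343 and 6023 bp in that of Rhd, and 3725 and 5760 bp in that of Bsg. They covered 4723 and 6018 bp at Ermap, 1485 and 1887 bp at Slc14a1, and 930 and 949 bp at Kel. Coverage was 1094 and 961 bp at Aqp1 and 2161 and 1165 bp at Cd44. The whole list covered 27.3 Mb at 0 h and 37.2 Mb at 24 h. CTCF overlapped the region over the start in Kel, Ermap, Icam4, Bsg and Cd47 at both times and in Rhd and Cd44 at neither.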

How the data were processed

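Peak lists of H3K4me3, H3K27ac and CTCF from G1ER cells were analyzed. Histone ChIP reads were mapped to mm10 by the authors with Bowtie2, who kept uniquely mapped reads and called peaks in each library with MACS without its model step. The MACS version, control library and threshold are not given in the sources used here. The deposited files hold peak positions and a score per peak. Depth and the precision it gives are therefore unknown. The score served for ranking peaks and for a cutoff among the alternatives. For the H3K27ac regions at Tmem50a, Icam4 and the Cd44 intron it is also given as listed, without a test. The protocol in the labels also names the human build hg19, but all peaks lay within the chromosome ends of GRCm38 (mm10), which was used. In 2 lists of a mark at most 0.0379% of peaks were identical.

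Samples were grouped by antibody and hours as the titles give them. Gene positions came from GENCODE M21, with 1 start per gene, taken from its top APPRIS transcripts, the longest where several tied. For each mark, peaks of all 10 lists that touched were merged into regions. Their covered length, as log2(bp + 200), entered a two-sided limma test (lmFit and eBayes, trend on) across every region, or every protein-coding gene window, that held peaks in 2 or more lists. Each time point had its own mean, and p-values were Benjamini-Hochberg adjusted with a threshold of 0.05. The trend was linear in the order of the 5 time points. A region was gained when both later lists and neither at 0 h held a peak, and lost in the reverse case. The fit was also run on simulated lengths with normal noise around the mean of each region or window. Such data do not reproduce peaks present in some lists and absent from others, so they cannot test calls of that kind. The genes, lists and tests were chosen with earlier results of these data known. All 9 genes are described, with the region over each start and each region called, gained or lost, and other regions by counts and ranges or as examples. Of the 30 further genes, values are given for Rhag, Xk, Slc4a1 and Ackr1 and for those called, as set beforehand. Kcnn4, and in the closing section Smim1, Piezo1, Epor and Tfrc, were named after their values were seen. The closing section gives values for its genes as well. An item withheld from this text is not reported here. R 4.3.3 with limma 3.58.1 and Python 3.11.15 with numpy 2.4.6, pandas 2.3.3 and matplotlib 3.10.9 were used.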

Additional observations from a re-analysis of the deposited data

How the results depend on the processing

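Windows of the 9 genes gave 0 calls at 24 h for either mark under all 22 alternatives (pseudocount, filter, score, peak number, scaling, flank, block and lists left out). For H3K4me3 regions the count of 0 at 24 h and of 0 for the trend was the same under all alternatives but 1, since it was 0 to 1 on leaving out single lists. That call, of the Rhd region at 4188 to 5966 bp, came without replicate 2 at 24 h, which left only the list without a peak there. For H3K27ac regions the 3 calls at 24 h became 0 with only the peaks whose score reached the median over all lists and 1 with the replicate block, and 1 to 2 on leaving out single lists. These are not always a subset of the 3. Without either list at 12 h the 2 calls were Tmem50a and Llcfc1 (adjusted p = 0.0095 and 0.0098 for Llcfc1), and with the lists at 0 and 24 h alone Llcfc1 (0.031) replaced Icam4 (0.13). The 3 trend calls became 1 at the median score and 1 to 2 on leaving out lists. The count was 1 at 24 h without replicate 2 at 0 h, either list at 6 h, or either list at 24 h, and for the trend without replicate 2 at 0 h or either list at 24 h. The block also ended the Icam4 (log2 0.49, limma adjusted p = 0.076) and Cd44 (-0.35, adjusted p = 0.052) calls. Equal replicate numbers did not pair the lists (correlation of deviations -0.08 to 0.03 for H3K4me3 and -0.03 to 0.02 for H3K27ac over 10 pairs of time points). At the median score the log2 difference at Icam4 was -2.13 (adjusted p = 0.66). The Icam4 call held under 7 of 20 alternatives and was lost with length scaling (adjusted p = 0.052), and the Cd44 call held under 8 of 20 and was lost when at least 5 lists (0.054) or 1 list (0.057) had to hold a peak. The Llcfc1 region was called under 3 of the 18 in which it was tested. The Tmem50a call held under 18 of the 19 alternatives in which the region was tested. Its log2 values were 3.09 with a pseudocount of 1000 bp and 7.24 with 50 bp. The call was lost with equal numbers of top-scoring peaks (2.60, limma adjusted p = 0.4). At the median score this region was not among those tested. Regions gained or lost at 24 h were 2 for H3K27ac, 0 at the median score, 1 with equal peak numbers and 2 to 4 on leaving out lists (4 without replicate 2 at 0 h). For H3K4me3 they were 0, 1 at the median score and 0 to 1 on leaving out lists (1 without either list at 0 h or without replicate 2 at 24 h). The causes of these differences were not tested. The lists give no depth, so an absent peak is not an absent mark.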

Other observations

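Starts with H3K4me3 in most lists and H3K27ac in none or only some were also seen among erythroid markers and red cell surface genes. These genes were picked out after their values were seen. Gfi1b, Nfe2, Lyl1 and Zfpm1, which encode transcription regulators of blood cells, had H3K4me3 over the start in 9, 9, 10 and 8 lists and H3K27ac in 0. Epor, the erythropoietin receptor, had H3K4me3 in 10 lists and H3K27ac in 2, and Tfrc, the transferrin receptor, in 10 and 1. Of the same 8 markers, Klf1 had both marks in 10 lists, and Tal1 had neither mark in any. Over all 9191 genes with H3K4me3 over the start in all 10 lists, 2.99% had H3K27ac in none. Smim1, the carrier of the Vel antigen, had H3K27ac peaks of 8135 and 6978 bp at 0 h, 8523 and 7710 bp at 2 h, 8848 bp in 1 list at 6 h and 8662 bp in 1 list at 12 h, and none in the other list at these times nor in either list at 24 h. Over the same start H3K4me3 measured 4605 and 4754 bp at 0 h and 5970 and 5714 bp at 24 h. Piezo1, a mechanosensitive channel, had H3K27ac over its start in only 2 lists, with 8593 and 8154 bp. The longest peak of each H3K27ac list was 8769 to 8973 bp, and whether the gaps follow from that limit was not tested.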
